A study of Bos taurus with 6 samples.

Results

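The genes described here are 34 genes of the G1/S transition and of DNA replication, a set named gene by gene and found by symbol in the deposited counts table. All 34 were among its 20958 genes and all 34 passed the filter on low counts, out of 12217 genes that did. They comprise the D-type cyclins with their kinases (CCND1, CCND2, CCND3, CDK4, CDK6), cyclin E with CDK2 and the phosphatase CDC25A (CCNE1, CCNE2, CDK2, CDC25A), E2F transcription factors (E2F1, E2F2, E2F3, E2F7, E2F8), the MCM2-7 helicase, factors that load or activate it (CDC6, CDT1, MCM10, GINS1, GINS2), proteins of the replication fork (POLA1, POLE, PCNA, RFC3, RFC4, FEN1) and enzymes of deoxynucleotide synthesis (RRM1, RRM2, TYMS).

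Polyadenylated RNA was sequenced from BEND cells, an established bovine endometrial line that the labels call epithelial. The cells were transfected with a bta-miR-200b mimic, a synthetic duplex that supplies the mature microRNA (3 libraries, called mimic), or with a control duplex, mimic NC (3 libraries, called NC). All 6 libraries came from cells grown in DMEM with serum, and all carry the treatment label "Cell apoptosis" with no agent, dose or time. Separate cultures are not named for the replicates. Each p-value therefore weighs the difference between the groups only against the spread of these 6 libraries within their groups, and that spread could be technical.

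A cell leaves G1 when D-type cyclins bind CDK4 or CDK6 and the complexes phosphorylate the retinoblastoma protein, which releases E2F factors. E2F factors then switch on cyclin E and most of the replication genes. In G1, CDC6 and CDT1 load the MCM2-7 ring on origins, and in S phase GINS and MCM10 help to turn that ring into the moving helicase that polymerases follow. In endometrial epithelium this programme is known for following the sex steroids. In bulk RNA, a change in the share of cells in a phase and a change in the RNA per cell cannot be told apart.

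Library totals lay between 19212694 and 21129547 counts, and the members had 55 to 4468 counts in a library. No 2 libraries agreed within counting noise: chi-square divided by its degrees of freedom was at least 5.14 for libraries of one group and at least 8.58 across groups. These ranges overlapped: mimic replicate 3 was nearer to NC replicate 3 (8.58) than to mimic replicate 1, and NC replicates 2 and 3 stood 10.9 apart. Of 11 epithelial markers, CLDN4 and GRHL2 had no read in any library, ESRP1 and CLDN7 were too low to test, and 6 of the 7 tested were higher in the mimic libraries. The 8 fibroblast or stromal markers all passed the filter on low counts, with a summed level of 20114 to 22878 CPM (counts scaled to library size by TMM) in mimic libraries and 21117 to 22846 CPM in NC libraries. Endothelial markers summed to 3.03 to 3.54 CPM in mimic libraries and 5.05 to 6.3 CPM in NC libraries, and PECAM1 was called lower. Immune markers summed to 3.05 to 3.08 CPM in mimic libraries and 4.01 to 4.63 CPM in NC libraries, with CD14 called lower and the leukocyte markers PTPRC and CD3E at 0. The BEND cells thus carried stromal alongside epithelial transcripts, and the part of these markers in the results below was not tested.

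CDK6 and CCND1, the kinase and the cyclin that start G1 progression, rose 1.36-fold and 1.34-fold. MCM10 and POLE, which act at the start and at the leading strand of the replication fork, rose 1.25-fold and 1.24-fold. No member fell. Thus 4 of 34 members, or 11.8%, were called higher (adjusted p under 0.05), where the background was 4.3% of all genes tested called higher, 2.15% called lower and 6.45% called in either direction. At an unadjusted p under 0.05, edgeR had 8 members higher and 1 lower, against 10.5% and 8.06% of all genes tested, while at an adjusted p under 0.05 DESeq2 and limma-voom each called 3 members higher (CCND1, CDK6 and POLE) and 0 lower. The median log2 fold change was 0.16 over the members and 0.001 over all genes tested, and 30 of the 34 members lay above 0, against 50.3% of all genes tested. Without mimic replicate 3 the test called 14 members and without NC replicate 2 it called 10, whereas leaving out any one of the other 4 libraries left 2, CCND1 and CDK6. The number of all genes called higher moved in the same settings, from 525 with all libraries to 731 without mimic replicate 3, 588 without NC replicate 2 and 275 to 427 without one of the others.

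**Figure D1:**
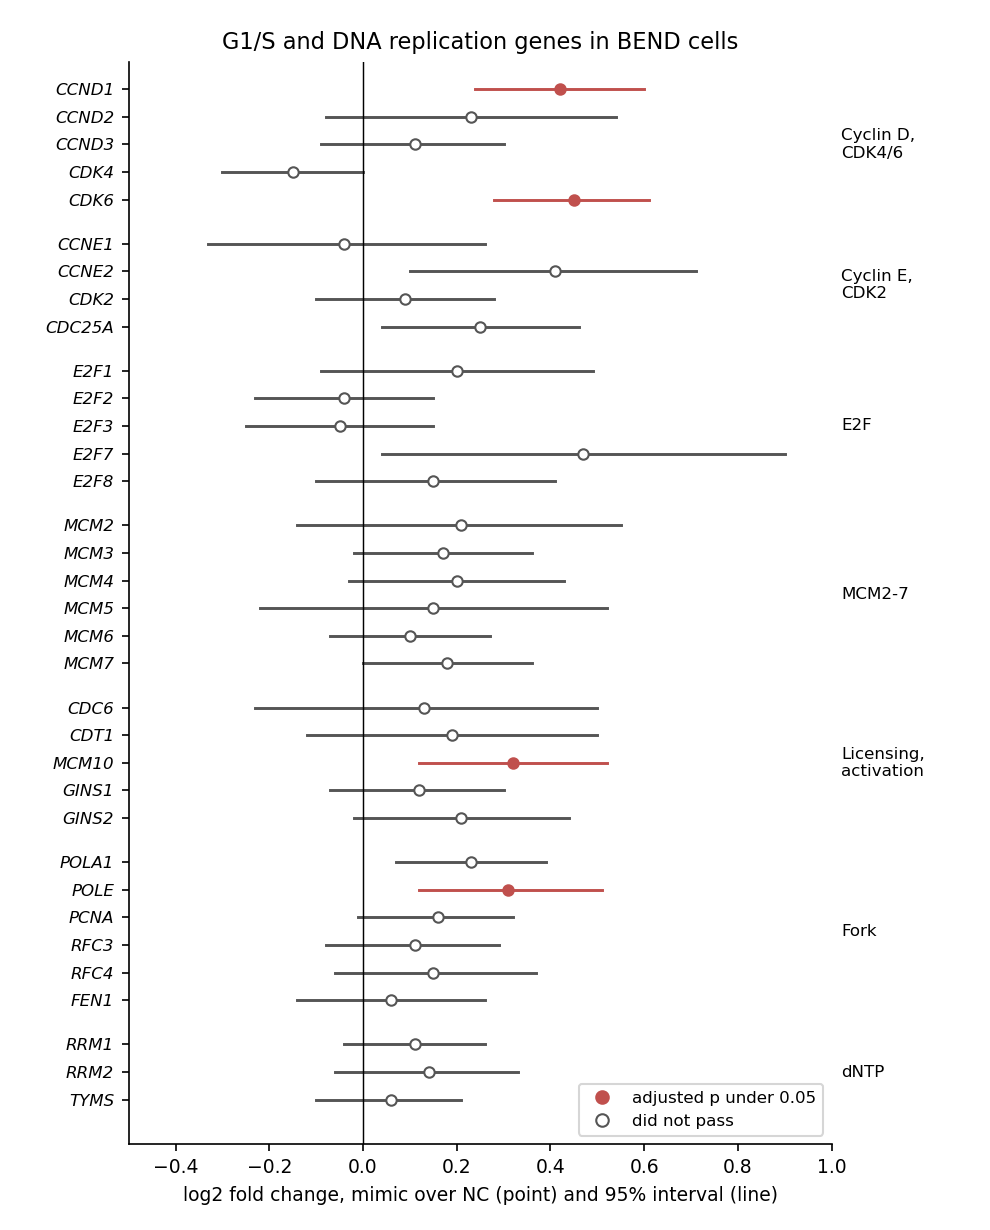
Log2 fold change of mimic over NC (x axis) for each of the 34 members, grouped by role (rows). Points are the edgeR estimates, lines their 95% intervals, and filled red points are the 4 members with an adjusted p under 0.05: CCND1, CDK6, MCM10 and POLE. Many intervals include 0, and all 6 MCM2-7 points lie between 0.10 and 0.21.

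Of the D-type cyclins, which sense growth factors and carry the kinases to the retinoblastoma protein, CCND1 was the one that rose. It had 126, 122 and 101 CPM in mimic replicates 1 to 3, against 79.4, 96.9 and 84.7 CPM in NC replicates 1 to 3. Each mimic library stood above each NC library, with mimic replicate 3 and NC replicate 2 closest. The log2 fold change was 0.42 ± 0.09 (SE), with a 95% interval of 0.24 to 0.60 and an adjusted p of 0.00345. CCND2 had 7.47, 6.88 and 7.13 CPM in mimic libraries and 7.10, 4.91 and 6.30 CPM in NC libraries. CCND3 had 49.9, 40.5 and 39.6 CPM in mimic libraries and 42.7, 37.9 and 40.1 CPM in NC libraries. For both of these cyclins the groups overlapped. Their log2 fold changes were 0.23 (95% interval −0.08 to 0.54, adjusted p 0.455) for CCND2 and 0.11 (−0.09 to 0.30, adjusted p 0.614) for CCND3. Within a library, the ratio of CCND1 to CCND3 was 2.70 ± 0.277 in mimic libraries and 2.18 ± 0.352 in NC libraries (SD, n = 3 each), an exact two-sided permutation p of 0.3. The smallest p that 3 against 3 libraries allow in that test is 0.1.

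CDK6 and CDK4 are the alternative catalytic partners of the D-type cyclins, and they stood on opposite sides of 0. CDK6 had 78.6, 86.7 and 79.7 CPM in mimic libraries, against 57.4, 56.9 and 65.4 CPM in NC libraries. All 3 mimic values lay above all 3 NC values, with a gap wider than the range within either group. Its log2 fold change was 0.45 ± 0.08 (95% interval 0.28 to 0.61, adjusted p 0.000663), the smallest adjusted p among the members. CDK4 had 101, 102 and 93.2 CPM in mimic libraries and 111, 112 and 105 CPM in NC libraries. Its groups did not overlap either, with the mimic libraries lower, but the log2 fold change of −0.15 ± 0.07 did not pass, at an adjusted p of 0.265 and an unadjusted p of 0.0483. It was the only member separated in that direction, where 10.4% of all genes tested were. The ratio of CDK6 to CDK4 was 0.778, 0.853 and 0.855 in mimic replicates 1 to 3, against 0.516, 0.509 and 0.622 in NC replicates 1 to 3. That the groups were separate for this ratio follows from the values of the 2 genes. Its exact two-sided permutation p of 0.1, the smallest possible, follows from them too and adds no support. Both ratios were chosen after the values were seen.

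CCND1 overlaps the gene LTO1 (ORAOV1 in the counts table), and the sources used here do not state a strand setting for the counting. LTO1 itself had 13.7 ± 1.46 CPM in mimic libraries and 14.4 ± 0.941 CPM in NC libraries (SD, n = 3 each). CDK6 overlaps 3 uncharacterised long noncoding RNAs and POLE a small nuclear RNA, for which the counts table has no row. In all, 12 members overlap another RefSeq gene and 7 of them a protein-coding one. None of these 7 protein-coding neighbours was called, which is near the 6.45% of all genes tested called in either direction. Whether members and neighbours share reads was not tested.

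**Figure D2:**
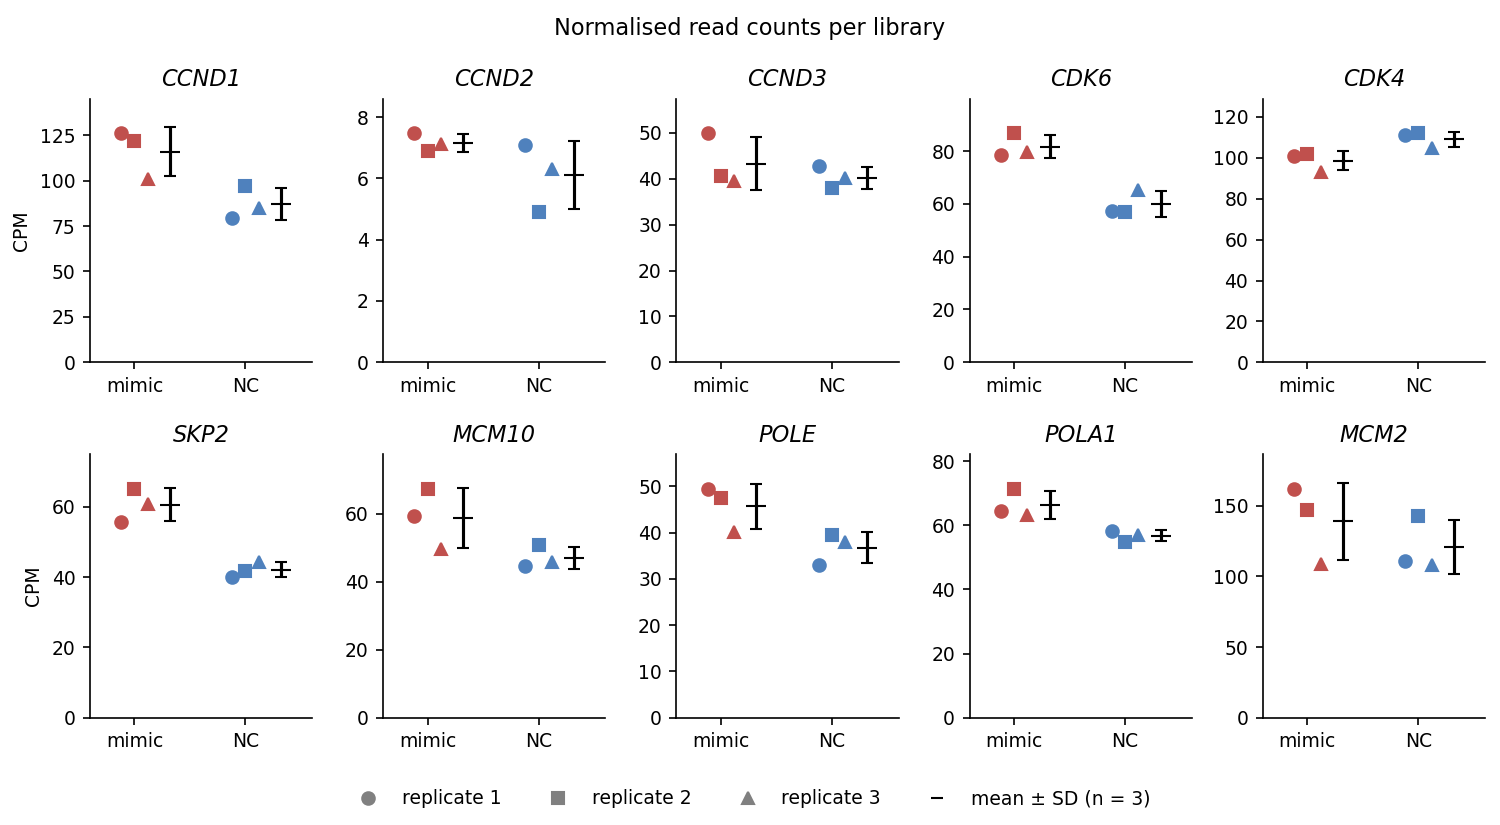
CPM (y axis, from 0) in each library for 9 members and the pathway gene SKP2, mimic at the left and NC at the right of each panel. Symbols give the replicate number and black bars the mean ± SD of 3 libraries. CCND1, CDK6, SKP2, POLE and POLA1 are separate and higher in mimic, CDK4 is separate and lower, and for MCM2 the triangle of mimic replicate 3 sits among the NC values.

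Cyclin E activates CDK2 to complete the transition, and none of its 4 members here passed. CCNE2, an E-type cyclin, had 6.94, 9.61 and 8.11 CPM in mimic libraries and 6.31, 6.64 and 5.62 CPM in NC libraries. The groups were just separate, with mimic replicate 1 near NC replicate 2, and the log2 fold change of 0.41 ± 0.15 had an adjusted p of 0.11. CCNE2 overlaps INTS8, which had 67.0 ± 2.25 CPM in mimic libraries and 69.7 ± 2.57 CPM in NC libraries. CDC25A, the phosphatase that removes inhibitory phosphates from CDK2, had 30.3, 29.2 and 24.1 CPM in mimic libraries and 22.1, 25.9 and 22.3 CPM in NC libraries. Mimic replicate 3 fell within the NC range, and the adjusted p was 0.165 at a log2 fold change of 0.25 ± 0.10 (0.0203 without that library). The paralog CCNE1 stood at −0.04 (95% interval −0.33 to 0.26) and CDK2 at 0.09 (−0.10 to 0.28) on the log2 fold change scale, both with overlapping groups.

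The 5 E2F genes were mixed, with 3 above 0 and 2 below, and none passed. E2F7, an atypical E2F that represses other E2F targets, had the largest estimate of all 34 members and also the widest interval. Its levels were 4.62, 6.78 and 4.08 CPM in mimic libraries and 2.71, 3.96 and 4.53 CPM in NC libraries, so the groups overlapped. The log2 fold change was 0.47 ± 0.21 with a 95% interval of 0.04 to 0.90 and an adjusted p of 0.211 (0.0268 without mimic replicate 3). E2F1, an activator E2F, had 22.8, 23.0 and 16.3 CPM in mimic libraries and 18.2, 21.3 and 14.6 CPM in NC libraries. Mimic replicate 3 lay below NC replicates 1 and 2, and the adjusted p was 0.506, or 0.0413 without that library. The activators E2F2 and E2F3 had log2 fold changes of −0.04 (95% interval −0.23 to 0.15) and −0.05 (−0.25 to 0.15), and E2F8, the other atypical member, 0.15 (−0.10 to 0.41).

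The MCM2-7 genes encode the ring-shaped core of the replicative helicase. All 6 had a log2 fold change above 0, from 0.10 for MCM6 to 0.21 for MCM2, and none passed, also by an unadjusted p under 0.05. MCM7 had 215, 207 and 169 CPM in mimic libraries and 168, 194 and 162 CPM in NC libraries. Mimic replicates 1 and 2 were the highest of the 6, while mimic replicate 3 stood near NC replicates 1 and 3 and below NC replicate 2. The adjusted p was 0.277 at a log2 fold change of 0.18 ± 0.09. MCM3 also had mimic replicate 3 between NC replicates 2 and 3, with 107, 102 and 84.6 CPM in mimic libraries and 79.9, 98.9 and 82.1 CPM in NC libraries, and an adjusted p of 0.34. MCM2, named after its values were seen, had 162, 147 and 109 CPM in mimic libraries and 111, 143 and 108 CPM in NC libraries. Its coefficient of variation within a group was 19.5% in mimic and 15.9% in NC libraries, and its adjusted p of 0.555 dropped to 0.00216 when mimic replicate 3 was left out and to 0.00519 when NC replicate 2 was. Without mimic replicate 3, MCM2, MCM3, MCM4, MCM5 and MCM7 were called, and the same 5 were called without NC replicate 2.

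Among the factors that load or activate the helicase, MCM10 was called and the other 4 were not. MCM10, which binds the ring as it becomes active, had 59.4, 67.3 and 49.5 CPM in mimic libraries and 44.6, 50.7 and 45.7 CPM in NC libraries. Mimic replicate 3 was just below NC replicate 2, so the groups overlapped. The log2 fold change was 0.32 ± 0.10 and the adjusted p 0.0439, close to the threshold. That p became 0.367 without mimic replicate 2, 0.234 without NC replicate 1, 0.144 without mimic replicate 1 and 0.143 without NC replicate 3, and it was 0.0511 with upper quartile scaling, 0.0505 with DESeq2 and 0.0584 with limma-voom. GINS2, a subunit of the helicase's GINS partner, had 32.3, 28.4 and 26.4 CPM in mimic libraries and 23.7, 30.1 and 21.6 CPM in NC libraries, with an adjusted p of 0.335. NC replicate 2 exceeded mimic replicates 2 and 3 for this gene. GINS1, CDC6 and CDT1, the last 2 being the loaders of the ring, had log2 fold changes of 0.12, 0.13 and 0.19 with intervals that include 0. CDC6 had the largest within-group coefficient of variation of the 34, 27.8% in mimic libraries.

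At the fork, POLE was called and POLA1 came close. POLE, the catalytic subunit of the leading-strand polymerase epsilon, had 49.5, 47.5 and 40.2 CPM in mimic libraries, against 33.1, 39.5 and 37.9 CPM in NC libraries. The groups were separate by a small margin, between mimic replicate 3 and NC replicate 2. The log2 fold change was 0.31 ± 0.09 and the adjusted p 0.0445, which was 0.346 without NC replicate 1, 0.212 without mimic replicate 2, 0.156 without mimic replicate 1, 0.0912 without NC replicate 3 and 0.0507 with upper quartile scaling. POLA1, the catalytic subunit of the polymerase alpha that lays down primers, had 64.6, 71.4 and 63.1 CPM in mimic libraries and 58.2, 54.9 and 57.0 CPM in NC libraries. Its groups were separate and its NC libraries the most even of any member, with a coefficient of variation of 2.99%, yet the log2 fold change of 0.23 ± 0.08 had an adjusted p of 0.0869, which was 0.046 without mimic replicate 3. The sliding clamp PCNA stood at 0.16 (95% interval −0.01 to 0.32), the clamp loader subunits RFC3 and RFC4 at 0.11 and 0.15, and the flap nuclease FEN1 at 0.06 on the log2 fold change scale, all with overlapping groups.

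None of the 3 genes of deoxynucleotide synthesis passed. RRM1, the large subunit of ribonucleotide reductase, had 148, 160 and 146 CPM in mimic libraries and 136, 151 and 133 CPM in NC libraries. RRM2, the small subunit that peaks in S phase, had 162, 198 and 152 CPM in mimic libraries and 147, 176 and 142 CPM in NC libraries. For both, NC replicate 2 exceeded mimic replicates 1 and 3. The log2 fold changes were 0.11 (95% interval −0.04 to 0.26, adjusted p 0.467) for RRM1, 0.14 (−0.06 to 0.33, adjusted p 0.483) for RRM2 and 0.06 (−0.10 to 0.21, adjusted p 0.772) for TYMS, the thymidylate synthase. TYMS overlaps ENOSF1, which had 5.40 ± 0.98 CPM in mimic libraries and 7.33 ± 0.825 CPM in NC libraries.

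The members shared a pattern over the libraries within each group, besides the difference between the groups. Mimic replicate 3 was the lowest of the mimic libraries for 27 of the 34 members, against 33.5% of all genes tested. NC replicate 2 was the highest NC library for 28 of the 34, against 36.4% of all genes tested. Both held for 24 members, against 19.2% of all genes tested. Centred on each gene's mean over the 6 libraries, the members had a mean log2 CPM of 0.125, 0.199 and −0.0731 in the mimic libraries, taken by replicate number, against −0.141, 0.0433 and −0.153 in the NC libraries. Mimic replicate 3 therefore stood below NC replicate 2. The same order held for the mean of 80 other genes of this pathway, described below, at −0.0198 and 0.0297. Of their lists, those of CDK inhibitors (0.0873 and −0.00429) and of pocket proteins with further E2Fs (0.0291 and −0.00719) had the opposite order. In 29 of the 34 members the highest NC library exceeded the lowest mimic library, leaving 5 (14.7%) separated with mimic higher: CCND1, CDK6, CCNE2, POLA1 and POLE. Over all genes tested 11.4% were separated with mimic higher.

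The role classes differed in how far they followed this pattern. The MCM2-7 genes had a mean centred log2 CPM of −0.161 in mimic replicate 3, close to the −0.165 of NC replicate 1, and 0.124 in NC replicate 2. The D-type cyclins with their kinases had 0.181, 0.118 and 0.0184 in the mimic libraries and −0.0745, −0.157 and −0.086 in the NC libraries, and NC replicate 2 was here the lowest. That mean hides a mixture of genes. Among the NC libraries, CCND1 (96.9 CPM) and CDK4 (112 CPM) were highest in NC replicate 2. CCND2 (4.91 CPM), CCND3 (37.9 CPM) and CDK6 (56.9 CPM) were lowest there. These classes were compared after their values were seen, and the difference between them was not tested.

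**Figure D3:**
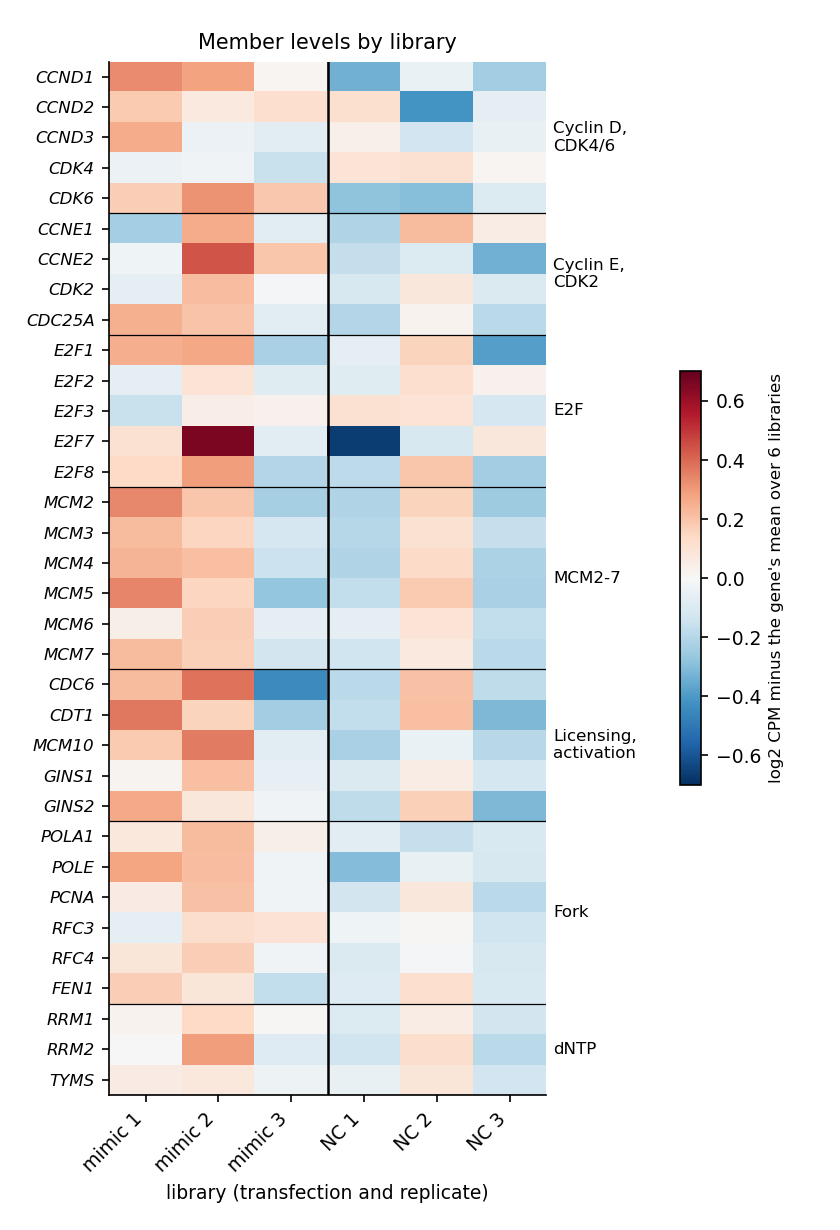
Log2 CPM of each member (rows, grouped by role) minus its mean over the 6 libraries (columns, mimic replicates 1 to 3 at the left, NC replicates 1 to 3 at the right). Red is above and blue below the gene's mean. In 27 of 34 rows mimic replicate 3 is the lowest mimic library, and in 28 of 34 NC replicate 2 is the highest NC library, while CDK6 and CCND1 keep mimic above NC in every library.

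None of the tested genes that restrain or relay the D-type cyclin signal was called, where 6.45% of all genes tested were called in either direction. In lists this short, no call is near that share and does not show that these genes were unchanged. None of 6 tested CDK inhibitor genes passed, and their median log2 fold change was 0.00 to the second decimal, with 3 above 0 and 3 below and none at an unadjusted p under 0.05. CDKN1A, which encodes p21, was at 376 ± 24.7 CPM in mimic libraries and 372 ± 17.2 CPM in NC libraries (SD, n = 3 each), a log2 fold change of 0.01 (95% interval −0.13 to 0.16). CDKN2B stood at 0.35, CDKN2D at −0.12 and CDKN2A at −0.04, with intervals that include 0. CDKN1C had no read in any library. None of 8 pocket protein, further E2F and DP partner genes passed, also by an unadjusted p under 0.05. RB1, the retinoblastoma gene, stood at 0.11 (−0.05 to 0.28), TFDP1, an E2F partner, at 0.11, E2F5 at 0.23 and the repressor E2F6 at −0.24.

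SKP2 rose the most clearly of the ubiquitin ligase genes. It encodes the subunit that marks the CDK inhibitor p27, the product of CDKN1B, for destruction. It had 55.7, 65.1 and 60.7 CPM in mimic libraries, against 40.1, 41.7 and 44.4 CPM in NC libraries. Every mimic library was higher than every NC library, and the log2 fold change was 0.52 ± 0.08 with an adjusted p of 0.000159. CDKN1B itself had 21.1 ± 0.885 CPM in mimic libraries and 21.0 ± 1.54 CPM in NC libraries. CCNA2, the S-phase cyclin, rose 1.24-fold (adjusted p 0.0179), and it overlaps EXOSC9. Thus 2 of 11 genes of this list rose and none fell, where 4.3% of all genes tested rose and 2.15% fell. CKS2 at 0.23 (adjusted p 0.145) and the chromatin reader UHRF1 at 0.22 (adjusted p 0.51) did not pass.

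Of 18 tested genes of origin recognition and helicase activation, MCM8 alone passed. That is near the 6.45% of all genes tested that were called in either direction. It encodes a helicase of homologous recombination outside the MCM2-7 ring and was at 6.61 ± 0.569 CPM in mimic libraries and 4.27 ± 0.346 CPM in NC libraries, a log2 fold change of 0.63 ± 0.15 with an adjusted p of 0.0126. MCM8 overlaps TRMT6. TICRR (0.34, adjusted p 0.0606), TOPBP1 (0.23, adjusted p 0.0868) and RECQL4 (0.36, adjusted p 0.158), which are linked to the loading of CDC45 on the helicase, did not pass. Of 28 further fork genes, 3 rose and none fell, where 4.3% of all genes tested rose and 2.15% fell. They were CLSPN, the checkpoint adaptor claspin, at 0.41 (adjusted p 0.0425), and POLA2, the partner subunit of POLA1, at 0.40 (adjusted p 0.0404). The third was TOP2A, a topoisomerase that peaks in G2, at 0.28 (adjusted p 0.0391). TIMELESS, of the fork protection complex, stood at 0.22 (adjusted p 0.0992). None of 9 further nucleotide supply genes passed, although RRM2B and CAD, for example, had an unadjusted p under 0.05. With 6.45% of all genes tested called in either direction, none among 9 is near that share. RRM2B, the p53-inducible reductase subunit, stood at 0.40 (adjusted p 0.0716), CAD, of pyrimidine synthesis, at 0.21 and the dNTP hydrolase SAMHD1 at 0.16.

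Over these lists together, 6 of 80 tested genes rose, where 4.3% of all genes tested did, and none fell, with a median log2 fold change of 0.12 and 67 of 80 above 0; DESeq2 called the same 6 and limma-voom 4 of them. The number called was 15 without mimic replicate 3 and 13 without NC replicate 2. It was 4 without mimic replicate 1, and 1 without mimic replicate 2, NC replicate 1 or NC replicate 3, where SKP2 was the gene left. SKP2, CDK6 and CCND1 were called under every one of 13 alternatives run. In the authors' own annotation, 35 tested genes carry the pathway term DNA replication, of which 2 rose, POLA2 and POLE, and none fell; that is near the 4.3% of all genes tested. Cell cycle marks 119 tested genes, of which 12 rose and none fell, against the same 4.3% called higher. Of the members, 12 and 20 carry these terms, and the terms were looked up after the members' values were seen.

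**Figure D4:**
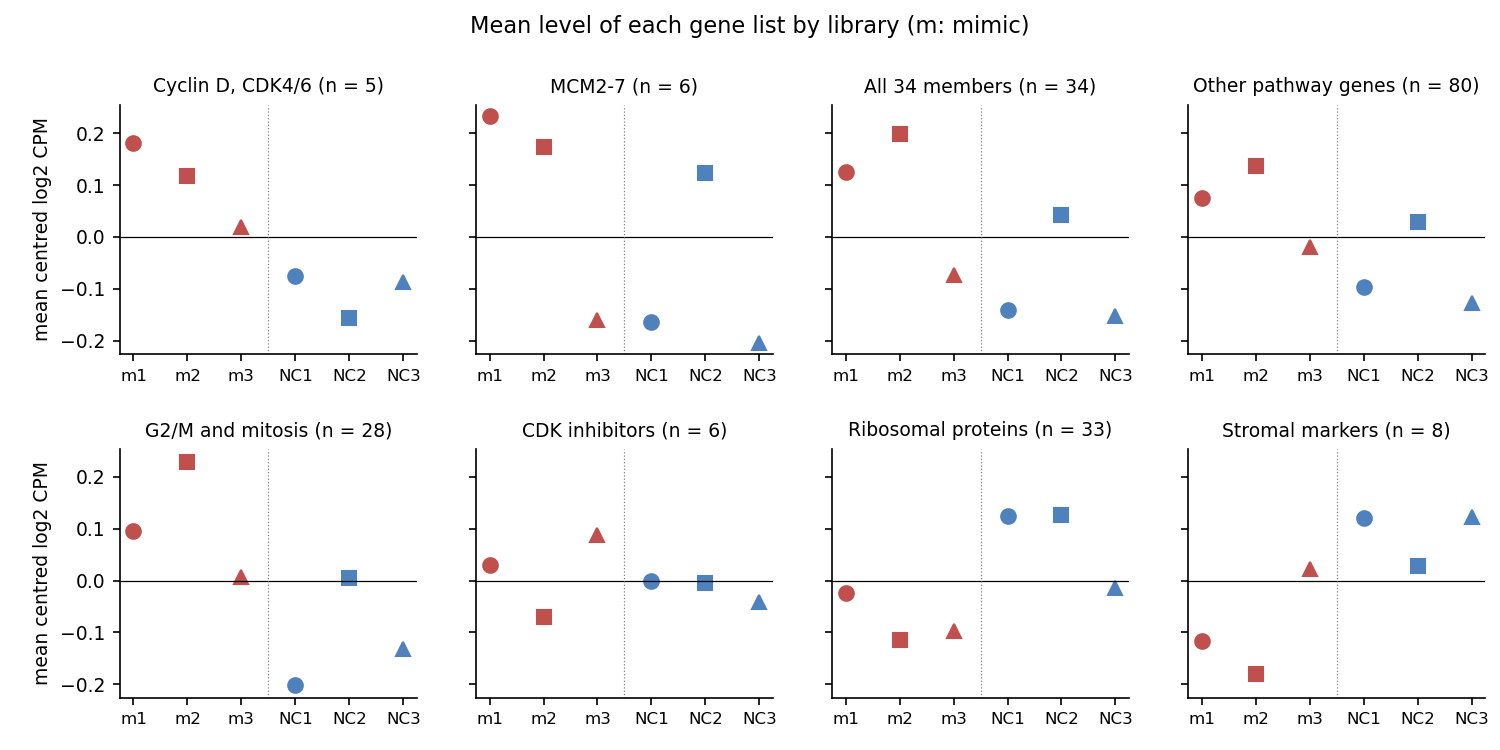
Mean log2 CPM of each gene list after centring each gene on its mean over the 6 libraries (y axis), by library (x axis; m1 to m3 are mimic and NC1 to NC3 are NC). The mean of the cyclin D and CDK4/6 class separates the groups, but of its genes only CCND1 and CDK6 do so with mimic higher. CDK4 is separate with mimic lower, and CCND2 and CCND3 overlap. MCM2-7 and all 34 members together put mimic replicate 3 below NC replicate 2, and ribosomal protein genes run lower in mimic.

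Other lists also differed between the libraries. Of 28 tested G2/M and mitosis genes, 7 rose, TOP2A among them, where 4.3% of all genes tested did. The median log2 fold change was 0.21 with every estimate above 0, against 50.3% of all genes tested above 0. Their mean centred log2 CPM was 0.0948, 0.228 and 0.00667 in the mimic libraries and −0.201, 0.00417 and −0.132 in the NC libraries. All 33 ribosomal protein genes lay below 0, with a median of −0.15. Of these, 2 were called lower, where 2.15% of all genes tested were. Their summed level was 27811 to 29645 CPM in mimic libraries and 29613 to 32709 CPM in NC libraries. By library, their mean centred log2 CPM was −0.0244, −0.115 and −0.0966 in the mimic libraries and 0.124, 0.126 and −0.0143 in the NC libraries. The stromal markers had a median of −0.19, with 3 of 8 called lower, and their mean was lowest in mimic replicates 1 and 2, where the members were highest. The part of any of these in the members' values was not tested.

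**Figure D5:**
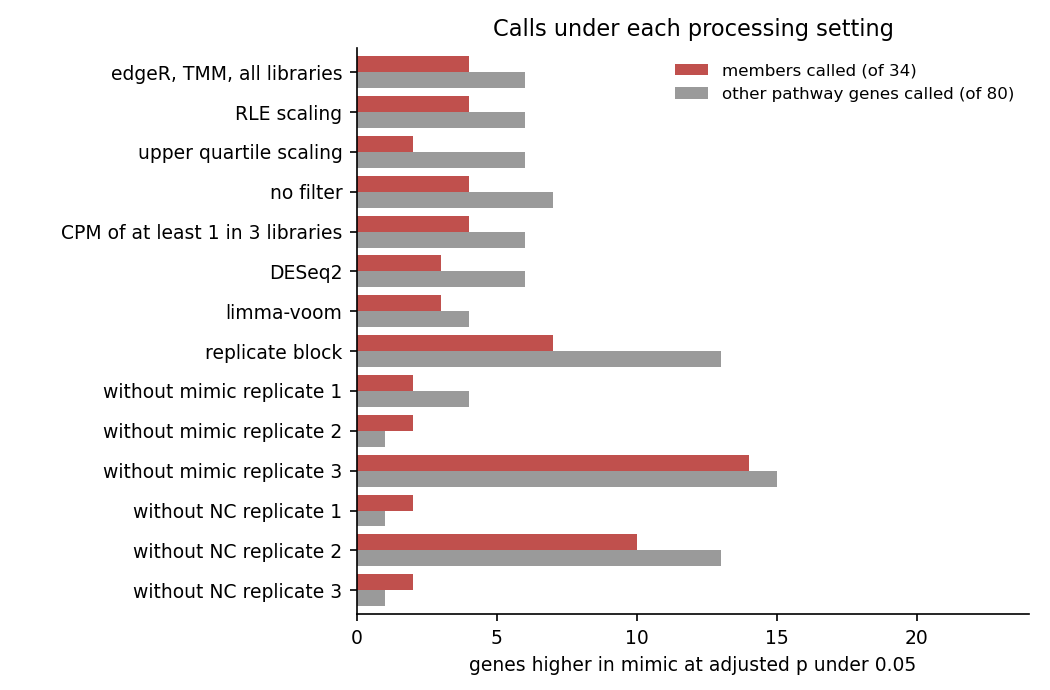
Number of members (red) and of other pathway genes (grey) called higher in mimic at an adjusted p under 0.05 (x axis), for the edgeR test on all libraries and each of 13 alternatives (rows). The members called range from 2 to 14, with the peaks of 14 without mimic replicate 3 and 10 without NC replicate 2.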

How the data were processed

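RNA-seq libraries of BEND cells were made with a stranded mRNA kit, per the labels' protocols. The authors deposited raw counts per gene and library. Per the submitters' processing notes the tools were HISAT2, HTSeq and Trimmomatic. The sources used here state no build, annotation or strand setting, and no coordinates are printed. Symbols stored as dates (26) were restored by GeneID. Overlapping genes come from a RefSeq table (ARS-UCD2.0).

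Genes were kept by filterByExpr (minimum count 10, minimum total 15; at least 99.96% of each library's counts). All 12217 were fitted with edgeR 4.0.16 (R 4.3.3): TMM (factors 0.983 to 1.01), robust quasi-likelihood F test, two-sided, group as the only factor, Benjamini-Hochberg adjustment over all genes, threshold 0.05. Every adjusted p is from this test unless another tool is named. SE is the log2 fold change over the square root of F, and intervals are 95%. The script was tested on simulated data. Alternatives were RLE and upper quartile scaling, no filter, limma-voom (limma 3.58.1), DESeq2 1.42.0, a CPM filter (1 or more in 3 libraries), a replicate block and leaving out each library.

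Members and lists were chosen with earlier results of these data known. Library values are given for each called member and the 2 with the smallest p in each role class, and up to 4 genes per pathway list are named by smallest p; 1 item that this rule would name is not reported here. CCND2, CCND3, CDK4, MCM2 and CDKN1B were added to complete a group, after their values were seen.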

Additional observations from a re-analysis of the deposited data

How the results depend on the processing

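No member that was called changed direction in any alternative. Of those that were not, CCND3, CCNE1, CDC6, CDK2, E2F2, E2F3, FEN1 and TYMS reached (to the second decimal) or crossed 0 when 1 library was left out. CCND1 and CDK6 were called in all 13 alternatives, with adjusted p up to 0.047 and 0.0125, both when 1 library was left out. Of the 34 members, 19 were called in no alternative. The number called higher was 2 with upper quartile scaling and 2 to 14 when 1 library was left out, and 0 members were called lower in any setting; by edgeR's unadjusted p under 0.05, 8 were higher and 1 lower. Leaving out 1 library gave 275 to 731 higher and 82 to 414 lower among all genes, 1 to 15 higher among the pathway genes and a member median of 0.095 to 0.263. The labels number the libraries from 1 to 3 in both groups but do not state whether equal numbers are pairs. Deviations of same-numbered libraries correlated at −0.0515 to 0.189, with 3 of 6 libraries closest to their own number. With the replicate block, edgeR called 7 members higher (POLA1 at an adjusted p of 0.0365), 13 pathway genes higher, and 816 higher and 496 lower genes in all. MCM8, TOP2A and CCNA2 lost their calls without mimic replicate 2, NC replicate 1 or NC replicate 3, and POLA2 and CLSPN also without mimic replicate 1 and with limma-voom. The cause of these shifts was not tested. At 3 libraries a group, intervals of members that did not pass still allow changes such as 0.54 for CCND2 or 0.90 for E2F7.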
